A study of Mus musculus with 6 samples.

Results

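A set of 10 genes of heart rate, contractile and vascular tone signalling were followed in the postnatal mouse ventricle: 8 G protein-coupled receptors and 2 kinases that act on such receptors. They were chosen by name, as the rows of the deposited mRNA count table with the symbols Adrb1, Adra1a, Adra1b, Chrm2, Agtr1a, Ednra, Ednrb, Adora1, Adrbk1 and Grk5, and all 10 were found among its 14495 genes. The libraries hold poly(A) RNA from the ventricles of male mice of the C57BL/6 strain, taken at postnatal day 14 (P14) and postnatal day 1 (P1), with no treatment or genetic change named for either age. Each age had 3 libraries, each made from 3 pooled hearts, so that 9 hearts stood behind an age and the spread between libraries is a spread between pools. The tissue protocol describes both ventricles with the septum after removal of the atria, whereas the tissue field names the left ventricle.

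Catecholamines reach the heart from sympathetic nerves and the adrenal medulla and act on beta receptors, which couple to Gs and raise cyclic AMP, and on alpha-1 receptors, which couple to Gq and phospholipase C. Acetylcholine from the vagus and adenosine released by the tissue act on muscarinic and A1 receptors that couple to Gi and oppose the beta response. Angiotensin II and endothelin act largely through Gq-coupled receptors on muscle cells, fibroblasts and vessel walls, and an activated receptor is phosphorylated by G protein-coupled receptor kinases, bound by arrestins and silenced.

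Of the 10 genes, 3 receptors were higher at P14 (Adra1a, Chrm2 and Adora1), 1 receptor and 1 kinase were lower (Ednrb and Grk5), and 5 did not pass the test (Adrb1, Adra1b, Agtr1a, Ednra and Adrbk1). The clearest difference was in the endothelin receptor Ednrb, which was 2.10-fold lower at P14. Adra1a was close to the detection limit at P1. It passed the filter on low counts only through its P14 libraries, so its place among the genes tested required a difference. A gene is said to have risen or fallen at P14 where edgeR's quasi-likelihood fit over 14301 genes gave an adjusted p under 0.05. Among all genes tested 21.8% rose and 22.0% fell, together 43.8%, so the 5 called members of 10 are a share near that background. The P14 and P1 libraries did not overlap for 5 of the 10 members, beside 54.8% of all genes tested. With library totals alone 1 member rose and 3 fell, beside 11.3% and 39.1% of all genes tested. The median log2 fold change of the members was 0.28, beside -0.01 for all genes.

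Total counts were between 9104230 and 15725993 at P14 and between 5916557 and 17353933 at P1, so low values rest on few reads. Levels are CPM, counts relative to the library's size scaled by the trimmed mean of M-values (TMM), a method that takes most genes as unchanged. Scaling by library totals alone moved the median of all genes to a log2 fold change of -0.47, and directions are given relative to the TMM scale. The libraries carried cardiomyocyte markers at a summed 106600 to 125800 CPM at P14 and 68740 to 78270 CPM at P1, over 13 genes that were all tested. Atrial and conduction system markers summed to 457.7 to 601.7 CPM at P14 and 822.8 to 1674 CPM at P1. Of their 10 tested genes 2 rose (Cntn2 and Tbx3), 4 fell (Bmp10, Gja5, Myl4 and Nppa) and 4 were not called. These counts stand beside 21.8% of all genes that rose and 22.0% that fell. Bmp10, an atrial growth factor, had 0 counts in every P14 library. In such bulk tissue a smaller share of a cell type and less RNA per cell cannot be told apart.

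**Figure D1:**
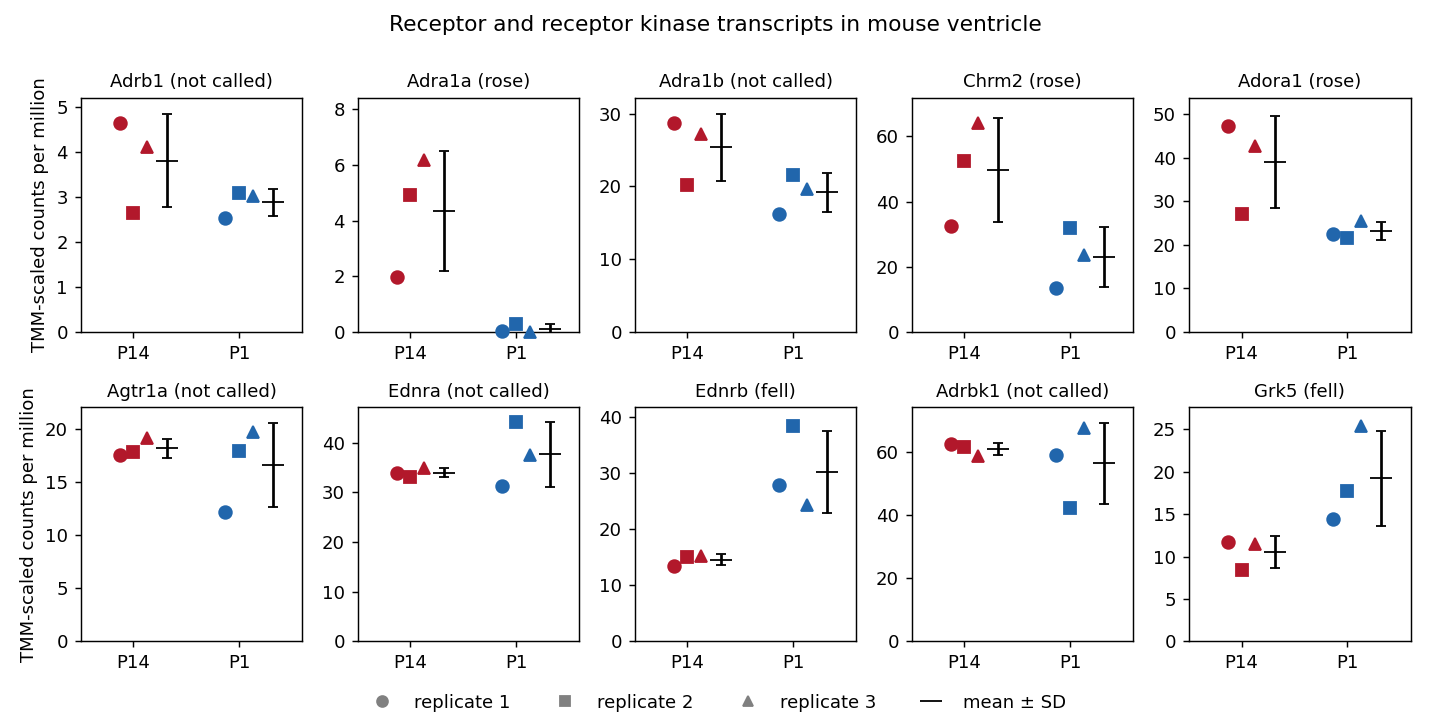
Level of each of the 10 genes in every library, as TMM-scaled CPM, with P14 left of P1; points are libraries (3 per age), shaped by replicate, and bars are mean ± SD. Adra1a lies between 1.97 and 6.18 CPM at P14 and at or below 0.291 CPM at P1, and Ednrb lies between 13.4 and 15.2 CPM at P14 and between 24.4 and 38.5 CPM at P1.

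The sequences around the start sites of 4 of the called members and of Ednra, the endothelin receptor that was not called, are shown because CG dinucleotides in them are the sites that DNA methylation can occupy, and the title of the series names the cardiac methylome. They come from RefSeq (GRCm38.p6), run from 250 bases before to 50 bases after the start on the gene's strand, and are written 5′ to 3′ with every CG in capitals. Windows were matched for 7 of the 10 members, 9 windows in all, and Adra1a, Agtr1a and Adrbk1 had none. Methylation itself was not part of the counts used here. Gene positions are those of GENCODE M21 on GRCm38 and span the whole gene, exons and introns. Of the 36-base windows of their transcripts, 81.68% in Adora1 and 97.04% to 99.85% in the other members occur in no other gene.
Ednrb chr14:103843652-103843951 (minus strand): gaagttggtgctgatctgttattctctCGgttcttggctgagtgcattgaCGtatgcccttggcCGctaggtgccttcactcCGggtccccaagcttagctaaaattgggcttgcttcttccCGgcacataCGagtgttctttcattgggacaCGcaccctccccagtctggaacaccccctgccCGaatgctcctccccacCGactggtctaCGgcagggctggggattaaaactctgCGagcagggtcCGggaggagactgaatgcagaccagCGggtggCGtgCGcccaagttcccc
Grk5 chr19:60889499-60889798 (plus strand): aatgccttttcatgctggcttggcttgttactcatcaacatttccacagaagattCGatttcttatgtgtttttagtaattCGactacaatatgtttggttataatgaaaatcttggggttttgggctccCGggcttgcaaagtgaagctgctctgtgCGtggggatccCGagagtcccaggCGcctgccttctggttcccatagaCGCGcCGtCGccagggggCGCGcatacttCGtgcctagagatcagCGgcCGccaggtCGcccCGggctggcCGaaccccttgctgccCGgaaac
Chrm2 chr6:36387834-36388133 (plus strand): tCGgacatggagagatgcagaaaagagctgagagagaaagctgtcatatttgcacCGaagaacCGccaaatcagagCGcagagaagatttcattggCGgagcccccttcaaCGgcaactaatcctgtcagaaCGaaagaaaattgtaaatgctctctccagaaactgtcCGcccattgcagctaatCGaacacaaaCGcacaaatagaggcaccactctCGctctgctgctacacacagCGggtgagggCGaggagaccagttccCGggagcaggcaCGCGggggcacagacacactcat
Adora1 chr1:134235408-134235707 (minus strand): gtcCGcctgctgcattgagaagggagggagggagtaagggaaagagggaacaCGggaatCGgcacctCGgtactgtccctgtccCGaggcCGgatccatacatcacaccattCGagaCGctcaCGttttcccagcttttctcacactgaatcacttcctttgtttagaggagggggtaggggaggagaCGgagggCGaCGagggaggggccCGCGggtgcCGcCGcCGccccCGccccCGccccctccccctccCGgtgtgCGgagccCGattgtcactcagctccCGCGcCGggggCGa
Ednra chr8:77724403-77724702 (minus strand): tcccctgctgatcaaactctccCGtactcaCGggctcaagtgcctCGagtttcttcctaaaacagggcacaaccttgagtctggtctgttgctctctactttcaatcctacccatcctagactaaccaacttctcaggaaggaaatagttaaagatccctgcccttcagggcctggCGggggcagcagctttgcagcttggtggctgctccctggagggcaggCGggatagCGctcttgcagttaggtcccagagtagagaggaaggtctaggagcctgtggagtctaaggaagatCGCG

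These windows differed widely in CG content. The Adora1 window shown held 26 CG dinucleotides, the Grk5 window 19, the Chrm2 window 16, the Ednrb window 15 and the Ednra window 8. Over all 32851 RefSeq windows of this length the median was 7, and 8 of the 9 member windows lay above it. Of motifs searched on both strands, the GC box GGGCGG was found in 4 member windows (35.7% of all windows hold it) and CATTCC, the core bound by TEAD factors, in 1 (14.7% of all windows). The cyclic AMP response element TGACGTCA, found in 1.79% of all windows, and the letters TATAAA (13.6%), AGATAA (11.2%) and CACGTG (7.15%) were in none of the member windows. None of these 6 motifs contains another, and a match is only a match of letters.

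Of the adrenergic receptors the largest fold change was that of Adra1a (ENSMUSG00000045875, chr14:66635251-66771168, plus strand), the alpha-1A receptor, which in rodent cardiomyocytes couples to Gq. Per kilobase of exon Adra1a had the lowest level of the 10 members at both ages. It had 28, 37 and 48 counts in P14 libraries and 1, 5 and 0 counts in P1 libraries, which is 1.97, 4.91 and 6.18 CPM at P14 and 0.0463, 0.291 and 0 CPM at P1. Every P14 library lay above every P1 library, and in the P1 library without a read, replicate 3, the floor of 3 counts stands at 0.505 CPM. Summed over libraries, 113 counts at P14 against 6 at P1 give a ratio of 28.5 after scaling, with an exact 95% interval of 12.7 to 79.4 that covers counting error only. The fitted log2 fold change was 4.89 ± 0.68 (SE, n = 3 libraries per age, adjusted p = 7.53e-05 in edgeR's quasi-likelihood test), a value that depends on the prior count. It was 6.49 without P1 replicate 2, which held 5 of the 6 P1 counts, and 4.27 without P1 replicate 1. Adra1a passed the filter on low counts only through its P14 libraries, so its place among the genes tested required a difference.

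Adra1b (ENSMUSG00000050541, chr11:43774606-43901210, minus strand), the alpha-1B receptor, was the more abundant alpha-1 receptor at both ages. Its level was 28.7, 20.2 and 27.2 CPM at P14 and 16.2, 21.6 and 19.7 CPM at P1, and the lowest P14 library lay among the P1 libraries. The log2 fold change was 0.41 ± 0.22 (SE, 95% interval -0.07 to 0.88, adjusted p = 0.151 in edgeR's test, n = 3 per age), so a rise of that size was not resolved. Per kilobase of exon, the ratio of Adra1a to Adra1b was 0.0266, 0.0943 and 0.0881 within the P14 libraries and 0.0011, 0.00524 and 0.00994 within the P1 libraries, the P1 replicate 3 value being an upper value set at the floor of 3 counts and the P1 replicate 1 value resting on 1 count. The ages did not overlap, and the difference in mean log2 ratio was 3.97 with that floor and 4.61 with 0.5 added to each count. It was 3.07 without P1 replicate 1 and 4.65 without P1 replicate 3. The two-sided exact permutation test gave p = 0.1, the smallest that 3 against 3 libraries allow. A ratio within a library does not depend on how libraries are scaled.

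Adrb1 (ENSMUSG00000035283, chr19:56722199-56733113, plus strand), the beta-1 receptor that carries most of the sympathetic drive to the ventricle, had 4.64, 2.66 and 4.12 CPM at P14 and 2.54, 3.09 and 3.03 CPM at P1, from 18 to 66 counts per library, with P14 replicate 2 among the P1 values. The log2 fold change of 0.43 ± 0.32 (SE, 95% interval -0.26 to 1.11) did not pass edgeR's test (adjusted p = 0.3, n = 3 per age), and its sign turned when libraries were scaled by totals alone or corrected for GC content.

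Chrm2 (ENSMUSG00000045613, chr6:36388084-36528414, plus strand), the M2 muscarinic receptor through which the vagus slows the heart, rose at P14. Its level was 32.4, 52.6 and 64.0 CPM at P14 and 13.4, 31.8 and 23.6 CPM at P1. Every P14 library lay above every P1 library, although P14 replicate 1 exceeded P1 replicate 2 by little. The log2 fold change was 1.11 ± 0.32 (SE, 95% interval 0.41 to 1.82, 2.16-fold, adjusted p = 0.0155 in edgeR's test, n = 3 per age). The call ended with library totals alone (log2 fold change 0.63, adjusted p = 0.0521), and without P14 replicate 2, P14 replicate 3 or P1 replicate 3 (adjusted p = 0.0512, 0.067 and 0.0515). On the other strand 9330158H04Rik shares 142 of the 6053 exon bases of Chrm2 and rose by a log2 fold change of 1.81, and whether the counting used strand is not stated in the labels or notes.

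Kcnj3, a subunit of the potassium channel that Gi-coupled receptors open through G protein beta-gamma subunits, had 21.8, 24.3 and 23.7 CPM at P14 and 6.38, 8.69 and 8.92 CPM at P1. It rose by a log2 fold change of 1.55 ± 0.23 (SE, adjusted p = 0.000101 in edgeR's test, n = 3 per age), and it shares exon bases with Gm26794 on the other strand. Kcnj5, its partner subunit, was named after its values were seen and was not called (69.6 ± 2.7 CPM at P14 and 79.8 ± 15.9 CPM at P1, SD, n = 3). The ratio of Adrb1 to Chrm2 per kilobase of exon was 0.257, 0.0904 and 0.115 at P14 and 0.339, 0.174 and 0.230 at P1. The ages overlapped, and the difference in mean log2 ratio of -0.78 did not pass the two-sided exact permutation test (p = 0.3). Between libraries of the same replicate number the ratio was lower at P14 in all 3 pairs, where the exact paired test gave p = 0.25, the smallest that 3 pairs allow. The difference was -1.23 without P14 replicate 1 (same exact test, p = 0.1) and -0.47 without P14 replicate 2 (p = 0.5). After correction for GC content and length it was -1.49 (p = 0.1, the smallest possible, in the same exact test).

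Adora1 (ENSMUSG00000042429, chr1:134199223-134235431, minus strand), the A1 adenosine receptor, which like M2 couples to Gi, also rose. It had 47.3, 27.1 and 42.8 CPM at P14 and 22.4, 21.6 and 25.4 CPM at P1. No P1 library reached the lowest P14 library, replicate 2, but the margin there was small. The log2 fold change was 0.76 ± 0.23 (SE, 95% interval 0.27 to 1.25, 1.70-fold, adjusted p = 0.0152 in edgeR's test, n = 3 per age). The call ended with totals alone (log2 fold change 0.31, adjusted p = 0.331), after correction for GC content and length (0.49, adjusted p = 0.0516), and without P14 replicate 1 or P14 replicate 3 (adjusted p = 0.0706 and 0.0665). Adora1 shares 1162 of its 5785 exon bases with Mybph on the other strand, and Mybph was at 1.46 to 4.43 CPM at P14 and 2.13 to 2.51 CPM at P1. Adora2a, a Gs-coupled adenosine receptor of vessels and immune cells, had 20.8, 19.0 and 14.4 CPM at P14 and 9.95, 3.67 and 8.76 CPM at P1, and rose by 1.29 ± 0.33 on the log2 scale (SE, adjusted p = 0.00592 in edgeR's test).

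Agtr1a (ENSMUSG00000049115, chr13:30336441-30382867, plus strand), the main angiotensin II receptor of rodent heart, did not differ detectably. It had 17.5, 17.8 and 19.2 CPM at P14 and 12.2, 18.0 and 19.7 CPM at P1, and the P14 libraries lay within the range of the P1 libraries. The log2 fold change was 0.14 ± 0.23 with a 95% interval of -0.36 to 0.64 (SE, adjusted p = 0.652 in edgeR's test, n = 3 per age). Its ligand's precursor and the enzyme that makes the ligand did differ. Agt, angiotensinogen, had 9.57, 8.63 and 11.5 CPM at P14 and 1.67, 1.34 and 1.18 CPM at P1 (log2 fold change 2.77 ± 0.30, SE, adjusted p = 6.21e-06 in edgeR's test). Ace, the angiotensin-converting enzyme of endothelium, was named after its values were seen and averaged 37.4 ± 6.4 CPM at P14 and 13.9 ± 4.9 CPM at P1 (SD, n = 3), a log2 fold change of 1.45. It shares exon bases with Gm11651 on the other strand. Atp6ap2, the (pro)renin receptor and an accessory subunit of the proton pump, fell by a log2 fold change of -1.01 ± 0.28 (SE, adjusted p = 0.00889 in edgeR's test), with 6.40 ± 0.16 CPM at P14 and 12.7 ± 4.4 CPM at P1 (SD, n = 3).

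Of the endothelin receptors, Ednrb was called and Ednra was not. Ednrb (ENSMUSG00000022122, chr14:103814625-103844402, minus strand), the ETB receptor, which on endothelium releases nitric oxide and clears endothelin, had 13.4, 15.0 and 15.2 CPM at P14 and 27.9, 38.5 and 24.4 CPM at P1. All 3 P14 libraries lay below all 3 P1 libraries, and the P14 values were close together. Ednrb fell by a log2 fold change of -1.07 ± 0.23 (SE, 95% interval -1.55 to -0.58, adjusted p = 0.00179 in edgeR's test, n = 3 per age), and the call held in all 20 alternatives, with a highest adjusted p of 0.0318.

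Ednra (ENSMUSG00000031616, chr8:77663031-77724464, minus strand), the ETA receptor of muscle and mesenchymal cells, had 33.9, 33.2 and 34.9 CPM at P14 and 31.3, 44.2 and 37.5 CPM at P1, with every P14 library inside the P1 range. Its log2 fold change was -0.15 ± 0.20 (SE, 95% interval -0.57 to 0.28, adjusted p = 0.576 in edgeR's test, n = 3 per age), and with library totals alone it was called lower (-0.61, adjusted p = 0.0441), as Ednrb was. On the other strand 4933431K23Rik shares 91 of the 5476 exon bases of Ednra. The ratio of Ednra to Ednrb per kilobase of exon was 1.97, 1.72 and 1.79 within P14 libraries and 0.872, 0.895 and 1.20 within P1 libraries. The ages did not overlap: Ednra was the higher of the pair in every P14 library, and in P1 replicate 3 but not in P1 replicates 1 and 2. The ratio was 1.87-fold higher at P14, with p = 0.1 in the two-sided exact permutation test and p = 0.25 in the exact paired test, each the smallest that its design allows. Edn1, the endothelin-1 precursor, was named after its values were seen. It had 4.50 ± 0.95 CPM at P14 and 7.30 ± 0.23 CPM at P1 (SD, n = 3) and was just past the threshold, at an adjusted p of 0.0445 in edgeR's test and 0.057 in DESeq2.

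Counts of cell type markers stand beside 21.8% of all genes that rose and 22.0% that fell, or 11.3% and 39.1% with library totals alone. When each library was left out, 2387 to 3401 of all genes rose and 2269 to 3309 fell. Over all 14301 genes 3411 rose and 3964 fell with the GC and length correction. These numbers were 3596 and 4082 with the replicate block added, and 3561 and 3435 with the block alone. Endothelial markers summed to 1303 to 1425 CPM at P14 and 939 to 1215 CPM at P1, and 6 of 13 rose and 0 fell. With library totals alone 2 of them rose and 4 fell. The number that fell was 2 with the GC and length correction, with or without the replicate block. It was 1 without P14 replicate 1 and 2 without P1 replicate 2. Schwann cell and glial markers summed to 22.0 to 27.4 CPM at P14 and 13.2 to 18.4 CPM at P1, with 1 of 6 tested genes rising, or 3 with the replicate block, with the GC and length correction or without P1 replicate 2, and 2 without P14 replicate 1. Melanocyte markers summed to 57.6 to 64.8 CPM at P14 and 34.1 to 45.3 CPM at P1, with 2 of 4 rising and 1 falling. The 2 that rose were 0 with library totals alone. They were 1 without P14 replicate 1, P14 replicate 2, P1 replicate 1 or P1 replicate 3. The 1 that fell was 0 without P14 replicate 1, P14 replicate 2, P1 replicate 2 or P1 replicate 3. Epicardial markers summed to 16.1 to 22.9 CPM at P14 and 37.2 to 57.2 CPM at P1, and 3 of 5 tested genes fell. Their part in the fall of Ednrb was not tested.

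Grk5 (ENSMUSG00000003228, chr19:60889749-61095968, plus strand), a membrane-bound receptor kinase that is abundant in heart, fell. It had 11.8, 8.36 and 11.5 CPM at P14 and 14.4, 17.8 and 25.4 CPM at P1. The ages did not overlap, with P14 replicate 2 lowest and P1 replicate 3 highest. The log2 fold change was -0.84 ± 0.26 (SE, 95% interval -1.40 to -0.29, adjusted p = 0.0169 in edgeR's test, n = 3 per age), and the call ended without P14 replicate 2 (adjusted p = 0.0905) or without P1 replicate 3 (adjusted p = 0.106).

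Adrbk1 (ENSMUSG00000024858, chr19:4286001-4306222, minus strand), which encodes GRK2, the kinase that beta-gamma subunits bring to active receptors, had 62.4, 61.5 and 58.9 CPM at P14 and 59.1, 42.4 and 67.7 CPM at P1. Its P14 libraries lay within the P1 range, and the log2 fold change was 0.12 ± 0.20 (SE, 95% interval -0.32 to 0.55, adjusted p = 0.675 in edgeR's test, n = 3 per age). The ratio of Grk5 to Adrbk1 per kilobase of exon was 0.119, 0.0863 and 0.124 within P14 libraries and 0.155, 0.266 and 0.238 within P1 libraries. The ages did not overlap, the difference in mean log2 ratio was -0.98, and p was 0.1 in the two-sided exact permutation test, the smallest possible. After correction for GC content and length the difference was -0.52 (p = 0.2 in the same exact test).

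Of the relatives, Adrbk2, which encodes GRK3, fell, with 13.1, 13.8 and 16.9 CPM at P14 and 21.0, 30.1 and 30.8 CPM at P1 (log2 fold change -0.90 ± 0.23, SE, adjusted p = 0.00574 in edgeR's test). Grk6, a kinase of the same family, was not called (31.6 ± 6.5 CPM at P14 and 26.7 ± 6.0 CPM at P1, SD, n = 3). The arrestins Arrb1 (29.0 ± 3.3 CPM at P14 and 38.1 ± 4.3 CPM at P1) and Arrb2 (21.5 ± 1.4 CPM at P14 and 16.2 ± 6.6 CPM at P1) did not pass the test, with adjusted p of 0.126 and 0.253 in edgeR's test (SD, n = 3). The P14 libraries of Arrb1 lay below its P1 libraries, and it was called lower with library totals alone (adjusted p = 0.00526), after correction for GC content and length (log2 fold change -0.68, adjusted p = 0.00145; with the replicate block added 0.000759) and without P1 replicate 2 (adjusted p = 0.0328). Adra1d and Agtr2 are not analysed here.

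**Figure D2:**
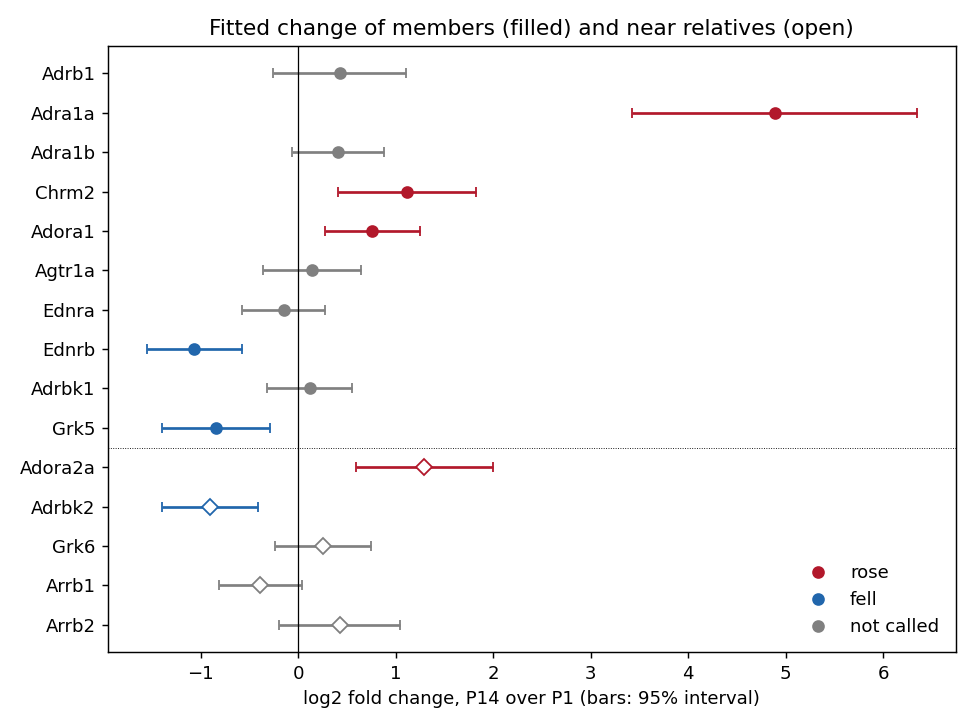
Log2 fold change of the members (filled) and 5 near relatives (open), P14 over P1, with 95% intervals from edgeR's quasi-likelihood fit; positive values are higher at P14. The interval of Ednrb runs from -1.55 to -0.58 and that of Agtr1a from -0.36 to 0.64, across 0.

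**Figure D3:**
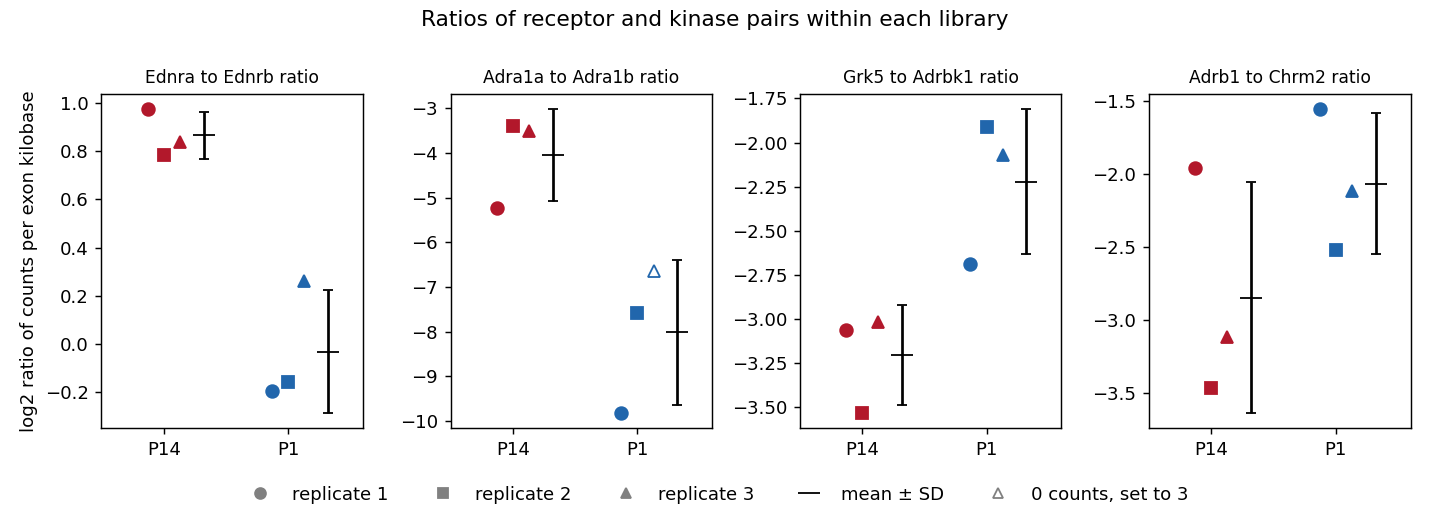
Ratio of 2 related genes per kilobase of exon within each library, as a log2 ratio, with P14 left of P1, 1 point per library and bars at mean ± SD; the open point is P1 replicate 3 set at the floor of 3 counts of Adra1a. As plain values the Ednra to Ednrb ratio is 1.72 to 1.97 at P14 and 0.872 to 1.20 at P1, whereas the Adrb1 to Chrm2 ratio overlaps between ages.

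Levels can be compared between genes only per length, as RPKM, the TMM-scaled CPM divided by kilobases of exon. At P14 Adrbk1 was highest at 13.6 RPKM, and Adra1a lowest at 0.499 RPKM. Between them Chrm2 (8.20 RPKM), Adra1b (7.5), Adora1 (6.75), Agtr1a (6.52) and Ednra (6.21) formed a run in which each overlapped its neighbour, followed by Ednrb (3.41), Grk5 (1.49) and Adrb1 (1.13), of which the last pair overlapped. At P1 Adrbk1 was again highest at 12.6 RPKM. There Ednrb (7.10 RPKM), Ednra (6.88), Agtr1a (5.96) and Adra1b (5.67) overlapped as neighbours, as did Adora1 (4.0), Chrm2 (3.79) and Grk5 (2.72), and Adrb1 (0.854) and Adra1a (0.0129) were lowest. By mean level Ednrb stood second in the order at P1 and seventh at P14, and Chrm2 seventh at P1 and second at P14. Places within an overlapping run were not resolved, and only neighbours in the order were compared. At P1 Chrm2 ran from 2.22 to 5.26 RPKM, into the ranges of Adra1b (4.80 to 6.38) and Agtr1a (4.37 to 7.07).

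Genes of the same pathways were counted in lists chosen with earlier results of these data known. Their counts stand beside shares over all genes tested of 21.8% that rose and 22.0% that fell, or 11.3% and 39.1% with library totals alone, and their medians beside -0.01. Of 6 other adrenergic, muscarinic, angiotensin, endothelin and adenosine receptors or binding proteins tested, 3 rose (Adora2a among them), 1 fell (Atp6ap2) and 2 were not called. With library totals alone 2 rose and 1 fell, and under a filter of over 5 CPM in 3 libraries 1 rose. Of 27 other vasoactive receptors 12 rose, 3 fell and 12 were not called, with a median log2 fold change of 0.52. With totals alone 8 rose and 5 fell, with a median of 0.07, beside -0.47 for all genes. Under a filter of over 5 CPM in 3 libraries 6 rose, where 2468 of all 10834 genes tested rose. With the GC and length correction 5 fell, where 3964 of all 14301 genes tested fell. P2ry1, an ADP receptor of platelets and vessels, rose to 6.40, 9.69 and 8.5 CPM at P14, against 1.34, 2.22 and 0.505 CPM at P1. P2ry2, a receptor for ATP and UTP, rose to 24.6 ± 1.6 CPM at P14, against 7.02 ± 0.97 CPM at P1 (SD, n = 3). F2r, the thrombin receptor, fell to 13.7, 12.9 and 13.1 CPM at P14, against 60.2, 59.8 and 61.1 CPM at P1, and S1pr1, a sphingosine phosphate receptor of endothelium, fell by a log2 fold change of -0.87. The libraries of F2r were nearly equal within each age and did not overlap between ages. Macrophage markers summed to 330.9 to 383.6 CPM at P14 and 88.9 to 104.7 CPM at P1, with 9 of 11 rising and 0 falling, and blood cell markers to 2704 to 3603 CPM at P14 and 469.7 to 987.6 CPM at P1, with 7 of 8 rising and 0 falling. Their part in the receptors that rose, Adora2a included, was not tested.

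Among 21 genes of ligand synthesis, processing and removal 6 rose, 4 fell and 11 were not called, and with totals alone, where 39.1% of all genes fell, 5 rose and 8 fell. The number that fell was 2 without P14 replicate 1 and 1 without P14 replicate 3, where 2816 of 14358 and 2437 of 14488 genes tested fell. It was 2 at an adjusted p under 0.01 and 1 for a fold change above 1.5, where 2025 and 1640 of all 14301 genes fell. Ddc, the decarboxylase that makes dopamine, fell to 14.2, 12.5 and 12.9 CPM at P14, against 204.5, 190.7 and 197.5 CPM at P1, a 14.9-fold difference. Dbh, which makes noradrenaline from dopamine and stands one step later in the same pathway, rose to 35.8, 35.8 and 28.7 CPM at P14, against 5.0, 2.68 and 2.86 CPM at P1 (log2 fold change 3.2 ± 0.28, SE, adjusted p = 9.54e-07 in edgeR's test). Both genes were separated between ages in every library and in opposite directions. Maoa, which breaks down catecholamines, fell by a log2 fold change of -1.0, and that call ended without P14 replicate 3 (adjusted p = 0.0542 in edgeR's test). Neuronal markers, a list that also holds Dbh, summed to 140.6 to 159.7 CPM at P14 and 78.1 to 123.4 CPM at P1, with 2 of 5 tested genes rising and 1 falling. The 1 was 0 with DESeq2 size factors, voom or no filter, and without P14 replicate 2, P14 replicate 3, P1 replicate 1 or P1 replicate 3. The part of these markers in the values of Ddc and Dbh was not tested.

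Of 23 heterotrimeric G protein subunits 2 rose, 10 fell and 11 were not called, at a median of -0.31 on the log2 scale, beside 21.8% and 22.0% of all genes and a median of -0.01. With totals alone 2 rose and 12 fell, beside 11.3% and 39.1% of all genes. The number that fell was 6 at an adjusted p under 0.01 and 5 for a fold change above 1.5. Over all 14301 genes 2025 and 1640 fell in these settings. Gng2, a gamma subunit, fell to 3.94, 3.32 and 6.95 CPM at P14, against 51.6, 44.7 and 63.0 CPM at P1. Gnai1, an inhibitory alpha subunit, fell to 6.58 ± 0.76 CPM at P14, against 20.2 ± 5.7 CPM at P1, and Gnb5, the beta subunit that pairs with RGS proteins, fell to 10.5 ± 2.4 CPM at P14, against 29.7 ± 6.0 CPM at P1 (SD, n = 3). In the other direction Gnaq, the alpha subunit through which alpha-1, angiotensin and endothelin receptors act, rose to 38.4, 54.8 and 50.5 CPM at P14, against 17.3, 27.2 and 21.9 CPM at P1. Gnas, which encodes the stimulatory alpha subunit of beta receptors, was named after its values were seen and was not called (log2 fold change -0.07, adjusted p = 0.847 in edgeR's test), but after correction for GC content and length it was called lower (-0.53, adjusted p = 0.0167). It shares exon bases with Gm20721 and Nespas on the other strand.

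Of 25 receptor kinases, arrestins and RGS proteins, 6 rose, 3 fell and 16 were not called, beside 21.8% and 22.0% of all genes. With totals alone 3 rose and 10 fell, beside 11.3% and 39.1% of all genes. The number that fell was 5 without P14 replicate 1, 6 without P1 replicate 2, 5 with upper quartile scaling and 1 for a fold change above 1.5. Over all genes tested 2816 of 14358, 3309 of 14229, 3454 of 14301 and 1640 of 14301 fell in these settings. Of the list 6 fell with the GC and length correction and 8 with the replicate block added. Over all 14301 genes 3964 fell with that correction and 4082 with the block added, against 3149 as reported. The number of the list that rose was 3 at an adjusted p under 0.01 and 3 for a fold change above 1.5. Over all 14301 genes 2110 and 1763 rose in these settings. RGS proteins speed the turn-off of Gi and Gq, and Rgs4 (26.7 ± 2.4 CPM at P14 and 3.47 ± 0.55 CPM at P1), Rgs5 (420.3 ± 26.5 CPM at P14 and 109.3 ± 29.1 CPM at P1) and Rgs2 (80.7 ± 9.8 CPM at P14 and 27.8 ± 9.0 CPM at P1) rose (SD, n = 3). Rgs5 is also a pericyte marker, and smooth muscle and pericyte markers, a list that holds Rgs5, summed to 5605 to 6256 CPM at P14 and 2721 to 4505 CPM at P1, with 9 of 13 rising and 2 falling. Their part in the rise of Rgs5 was not tested. Gpsm2, which binds Gi alpha subunits, fell by a log2 fold change of -1.37 and shares exon bases with Clcc1 on the other strand.

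Of 28 effectors 10 rose, 3 fell and 15 were not called, with a median log2 fold change of 0.50, beside 21.8% and 22.0% of all genes and a median of -0.01. With totals alone 7 rose and 8 fell, beside 11.3% and 39.1% of all genes. The number that fell was 1 without P14 replicate 2, 1 without P1 replicate 3, and 1 at an adjusted p under 0.01 or a fold change above 1.5. Over all genes tested 2269 of 14489, 2634 of 14478, 2025 of 14301 and 1640 of 14301 fell in these settings. Of the list 6 fell with the GC and length correction and 7 with the replicate block added. Over all 14301 genes 3964 fell with that correction and 4082 with the block added, against 3149 as reported. Rock1, the kinase downstream of RhoA that raises smooth muscle tone, rose to 44.7, 73.4 and 71.9 CPM at P14, against 17.5, 31.7 and 13.8 CPM at P1. Adcy7, an adenylyl cyclase, rose to 10.4 ± 0.8 CPM at P14, against 3.62 ± 0.73 CPM at P1, and Prkcd, a protein kinase C isoform, fell to 11.3 ± 0.9 CPM at P14, against 27.3 ± 4.1 CPM at P1 (SD, n = 3). The cyclases of cardiomyocytes, Adcy5 and Adcy6, were named after their values were seen. Adcy5 fell by a log2 fold change of -0.71 (adjusted p = 0.0192 in edgeR's test), a call that ended without P14 replicate 2 (adjusted p = 0.115), P1 replicate 1 (0.0656) or P1 replicate 3 (0.0694), and Adcy6 was not called.

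**Figure D4:**
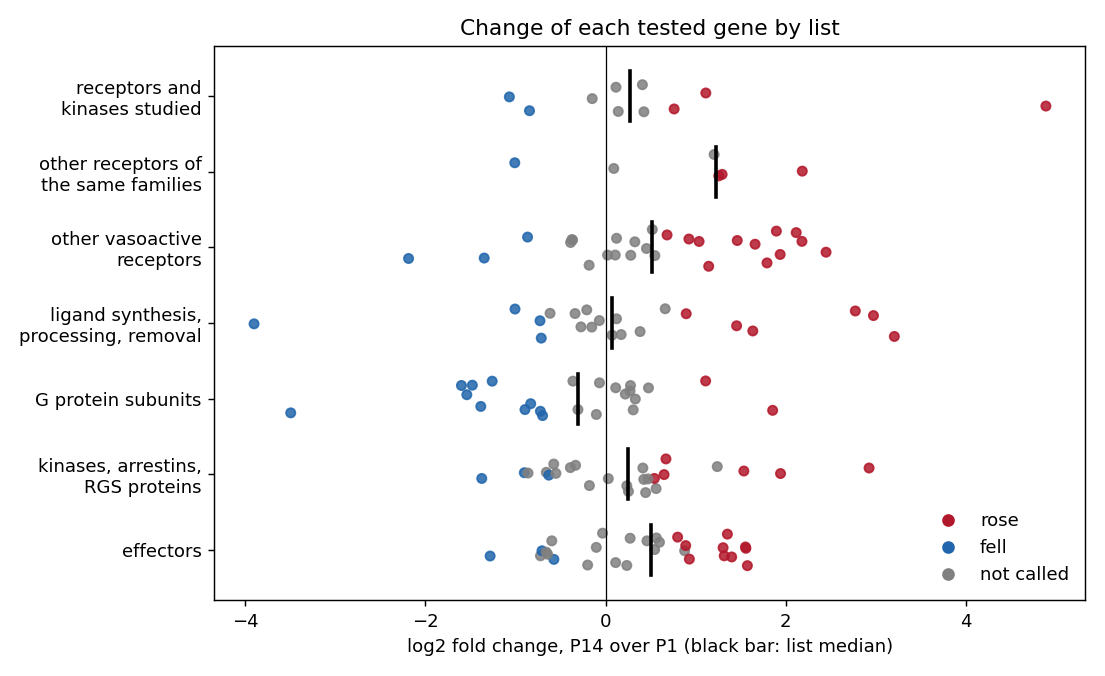
Log2 fold change, P14 over P1, of every tested gene in each pathway list; points are genes coloured by call, and the black bars are list medians. The other vasoactive receptors and the effectors have medians of 0.52 and 0.50, and the G protein subunits of -0.31.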

How the data were processed

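Poly(A) RNA of P14 and P1 ventricles was read over 36 cycles of an Illumina Genome Analyzer IIx, per the labels' protocols. The authors deposited whole-number read counts per gene, unnormalised, with library totals of 5916557 to 17353933. Per the submitters' processing notes bedtools and edgeR 3.2.4 were used, in roles that are not described, on GRCm38 (mm10). Not given in the sources used here are the aligner, the annotation, the counting program and whether it used strand. The smallest gene total in the table is 60 over the 6 libraries, so genes with fewer reads are not analysed here.

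Counts were analysed in R 4.3.3 with edgeR 4.0.16. The filterByExpr function, with 10 as its minimum count, kept 14301 genes and removed 194. Libraries were scaled by TMM, and age was the only term of a robust quasi-likelihood fit over all genes, with two-sided p-values adjusted by Benjamini-Hochberg and called under 0.05. Replicates varied by a common biological coefficient of 23.0%. Standard errors were derived from the fitted coefficient and F. Ratios of gene pairs used counts per kilobase of exon within a library, with exon lengths from GENCODE M21 (GRCm38), in which 14316 of the table's identifiers (98.8%) were found, and two-sided exact permutation tests (scipy 1.17.1). The fits were tested on simulated data that held larger changes than those of Chrm2, Adora1, Ednrb and Grk5. That test therefore does not cover changes of their size.

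The labels number the libraries 1 to 3 at each age. Same-numbered libraries of the 2 ages deviated from their age means with correlations of 0.295, 0.112 and 0.102. Other pairs had correlations of -0.214 to 0.09. By a rule of every correlation over 0.1 the numbers were treated as pairs in the paired tests and the replicate block. The values 0.112 and 0.102 lie close to that cut-off and to 0.09, and the labels state no pairing. A pairing of the libraries is therefore not established. The closest libraries, P14 replicates 2 and 3, differed by a chi-square of 12 per degree of freedom, so none was a duplicate.

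Alternatives were other scalings (DESeq2 size factors, library totals, upper quartile), other filters, DESeq2 1.42.0, edgeR's exact test, voom (limma 3.58.1), the replicate block, a correction for transcript GC content and length, stricter thresholds and leaving out each library. The members, lists, tests and alternatives were chosen with earlier results of these data known. Named are the 10 members, their nearest relatives and, per list, up to 3 called genes of at least 5 CPM with the largest change and 1 against the list's main direction. Of the genes so named, 1 is not reported here. Exceptions are stated as named after their values were seen. Overlaps of exons were looked up in GENCODE M21.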

Additional observations from a re-analysis of the deposited data

How the results depend on the processing

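Ednrb kept its direction and call under every alternative. So did Adra1a where it was tested, but it passed the filter through its P14 libraries and had to differ, and its log2 fold change was 4.27 to 6.49 when each library was left out. Adra1a and Adrb1 were not tested under a filter of over 5 CPM in 3 libraries. The number of members that rose was 3 in the comparison as reported. It was 1 with library totals alone, 1 at an adjusted p under 0.01, 1 for a fold change above 1.5 (glmTreat), and 1 (without P14 replicate 3) to 3 when each library was left out. The number that fell was 2, and it was 1 at an adjusted p under 0.01, 1 for a fold change above 1.5, and 1 (without P14 replicate 2 or P1 replicate 3) to 2 when each library was left out. With the replicate block 3 members rose and 2 fell, so treating the numbers as pairs changed no member's call, and of all genes 3561 rose and 3435 fell.

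Signs turned only among members that were not called. With library totals alone the log2 fold change was -0.039 for Adrb1, -0.049 for Adra1b, -0.31 for Agtr1a and -0.32 for Adrbk1. With the GC and length correction it was -0.18 for Adrb1, 0.055 for Ednra and -0.28 for Adrbk1, and with the replicate block added -0.13, 0.059 and -0.28. Leaving out each library gave -0.052 (without P1 replicate 1) to 0.29 for Agtr1a and -0.055 (without P1 replicate 2) to 0.28 for Adrbk1. With the GC and length correction the difference in mean log2 ratio, P14 minus P1, was -0.52 for Grk5 to Adrbk1 (exact permutation p = 0.2). For Adrb1 to Chrm2 the difference was -1.49 (exact permutation p = 0.1). The cause was not tested in any of these.

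Over all genes 2110 rose and 2025 fell at an adjusted p under 0.01, 1763 and 1640 at a fold change above 1.5, and 1620 and 5592 with totals alone. When each library was left out, 2387 (without P14 replicate 2) to 3401 (without P1 replicate 2) rose. In the same fits 2269 (without P14 replicate 2) to 3309 (without P1 replicate 2) fell. Depth limits Adra1a and Adrb1 most. Genes under a total of 60 counts, and reads on the other strand of Adora1, Chrm2 and Ednra, could not be assessed.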

Other observations

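Within the P14 libraries the members did not order alike. Replicate 2 was the lowest P14 library for Adrb1, Adra1b, Adora1, Ednra and Grk5, while replicate 1 was the lowest for Adra1a, Chrm2, Agtr1a and Ednrb. The ratio of Adrb1 to Chrm2 was highest in replicate 1 at both ages, at 0.257 at P14 and 0.339 at P1, and lowest in replicate 2 at both ages, at 0.0904 at P14 and 0.174 at P1. The antisense gene 9330158H04Rik, which overlaps Chrm2, had 56.4, 65.2 and 52.3 CPM at P14 and 14.9, 13.4 and 21.7 CPM at P1.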
